A study of Mus musculus with 9 samples.

Results

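The genes described here are 6 matrix metalloproteinases (Mmp2, Mmp3, Mmp8, Mmp9, Mmp12 and Mmp14) and the 4 tissue inhibitors of metalloproteinases (Timp1, Timp2, Timp3 and Timp4) in mouse heart. They were chosen by symbol, each matched 1 mouse Ensembl gene ID, and together they are 10 of the 53465 gene IDs counted. Of these 10 genes, 9 passed the filter on low counts and were tested among 13825 genes. Mmp8 did not pass and is given by its counts.

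Metalloproteinases are zinc-dependent enzymes, made as inactive precursors, that cut collagens, gelatin, elastin, proteoglycans and many surface proteins. TIMPs bind the active site of the mature enzymes and block it, so tissue proteolysis depends on both families. In the infarcted heart they are known for matrix breakdown, entry of inflammatory cells, scar formation and remodelling of the ventricle. Transcript levels, the quantity measured here, give neither the activation of the enzymes nor the amount of inhibitor bound.

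Total RNA was sequenced from NOD-SCID mouse hearts. The strain lacks functional T and B cells, and each of 3 groups had 3 libraries. The sham group had surgery without ligation, the ligation group had the coronary artery tied, and the cell group had the artery tied and received FOXO3-GE-MPCs, a name that the labels do not expand. All groups share the strain and the labelled tissue. The labels call the sampled region the infarct border zone in every group, the sham group included, in which no infarct was made. For cell libraries 2 and 3 the source field reads FOXO4-GE-MPCs and FOXO5-GE-MPCs, whereas the title and the treatment read FOXO3-GE-MPCs. The title and treatment were followed. Age, sex and the time after surgery are not given in the sources used here, and the labels name no injection for the ligation group, so effects of an injection and of the cells cannot be told apart. Nothing in the labels says that the libraries of a group came from separate animals, so p-values measure the spread between these libraries, which may be technical. Headers inside the count files share a name stem between sham libraries 1 and 2 and between ligation libraries 2 and 3.

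Gene counts per library ranged from 4549268 to 7515052, and the reads assigned to no gene or to several ranged from 12.3% to 13.6%. A count of 3 in a library, the limit that a count of 0 allows, corresponded to between 0.375 and 0.639 CPM. CPM is counts per 1000000 counts of the genes tested, with library sizes scaled by the trimmed mean of M values. The cardiomyocyte markers were abundant in all groups: 10 of them, among them Myh6 and Tnnt2, summed to between 50060 and 68560 CPM. Of 8 lymphocyte markers, which summed to between 4.58 and 19.5 CPM, Cd3d and Ms4a1 had 0 counts in all 9 libraries and only Ighm was abundant enough to be tested. Ighm was at 10.1 CPM in sham, 15.7 after ligation and 5.64 with cells (group means).

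Mmp3, Mmp8 and Mmp12 lie together in a metalloproteinase cluster on chromosome 9 (GRCm38, Mmp12 at chr9:7344381-7369499, Mmp3 at chr9:7445822-7455975 and Mmp8 at chr9:7558456-7568485, all on the plus strand). Of their neighbours in that cluster, Mmp1a, Mmp1b, Mmp7, Mmp10 and Mmp20 had 0 counts in all 9 libraries. The neighbours Mmp13 and Mmp27 had few, at 0 to 4 and 2 to 11 counts per library, and were not tested. The other genes are spread over the genome: Mmp2 at chr8:92827291-92853420, Mmp9 at chr2:164940780-164955850, Mmp14 at chr14:54431612-54445364, Timp1 at chrX:20870166-20874735 and Timp3 at chr10:86300372-86349506 on the plus strand, and Timp2 at chr11:118301069-118355740 and Timp4 at chr6:115241892-115252205 on the minus strand. Genes of this cluster are known targets of AP-1, the dimer of Fos and Jun proteins. Promoter windows of 250 bases before the transcription start were therefore searched on both strands for the AP-1 motif TGANTCA. The windows printed are those of Mmp12 and Timp4, which had the largest increase and the largest decrease after ligation. Those of Mmp3 and Timp1 were added after their values were seen. Capitals mark the motif, and each sequence runs 5′ to 3′ on the strand of its gene (RefSeq, GRCm38.p6).
Mmp12 (chr9:7347124-7347373, plus strand): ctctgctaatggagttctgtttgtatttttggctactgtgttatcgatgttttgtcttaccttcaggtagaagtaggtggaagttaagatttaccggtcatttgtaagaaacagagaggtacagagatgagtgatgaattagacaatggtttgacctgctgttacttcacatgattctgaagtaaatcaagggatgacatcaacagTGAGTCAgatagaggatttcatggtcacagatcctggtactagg
Mmp3 (chr9:7445572-7445821, plus strand): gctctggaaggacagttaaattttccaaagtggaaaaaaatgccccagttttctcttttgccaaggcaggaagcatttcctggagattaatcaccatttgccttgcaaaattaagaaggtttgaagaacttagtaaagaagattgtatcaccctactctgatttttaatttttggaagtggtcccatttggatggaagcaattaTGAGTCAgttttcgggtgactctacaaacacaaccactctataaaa
Timp1 (chrX:20869916-20870165, plus strand): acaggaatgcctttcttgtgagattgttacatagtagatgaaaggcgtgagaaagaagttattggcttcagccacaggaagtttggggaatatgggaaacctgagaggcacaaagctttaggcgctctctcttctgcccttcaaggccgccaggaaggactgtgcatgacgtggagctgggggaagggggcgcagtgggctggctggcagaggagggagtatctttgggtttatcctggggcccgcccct
Timp4 (chr6:115252206-115252455, minus strand): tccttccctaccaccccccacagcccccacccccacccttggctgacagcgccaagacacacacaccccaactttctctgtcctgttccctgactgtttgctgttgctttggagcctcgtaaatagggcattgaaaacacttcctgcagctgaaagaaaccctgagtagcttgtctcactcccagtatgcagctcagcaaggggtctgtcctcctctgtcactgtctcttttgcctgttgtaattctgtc
The printed windows of Mmp12 and Mmp3 each held 1 match, TGAGTCA, which ended 37 bases before the start in Mmp12 and 39 bases before it in Mmp3. No match was found in the windows of Timp1 and Timp4, nor in those of Mmp8, Mmp14, Timp2 and Timp3. The table had 9 windows for 8 of the 10 genes, the other window of Mmp12 (chr9:7344147-7344396) held no match, and Mmp2 and Mmp9 had no entry. Of all 32851 windows that RefSeq table gives, 2217 held a match, or 6.749%. A match describes the letters only.

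After ligation most of these genes were higher and Timp4 was lower. Of the 9 genes tested, 7 rose, 1 fell and 1, Mmp3, did not pass the test when ligation was compared with sham (edgeR's quasi-likelihood test, Benjamini-Hochberg adjustment over all 13825 genes, threshold 0.05). Across all genes 38.2% were called, 20.1% higher and 18.0% lower. Library values did not overlap between the groups for 8 of the 9 genes tested, beside 47.6% of all genes tested. Those of Mmp8 overlapped. With library totals alone as the scaling, under which the median log2 fold change over all genes was 0.20 and not 0.01, the same 9 tests kept their direction and call. The called genes then split into 4966 higher and 1346 lower, against 2783 and 2494.

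**Figure D1:**
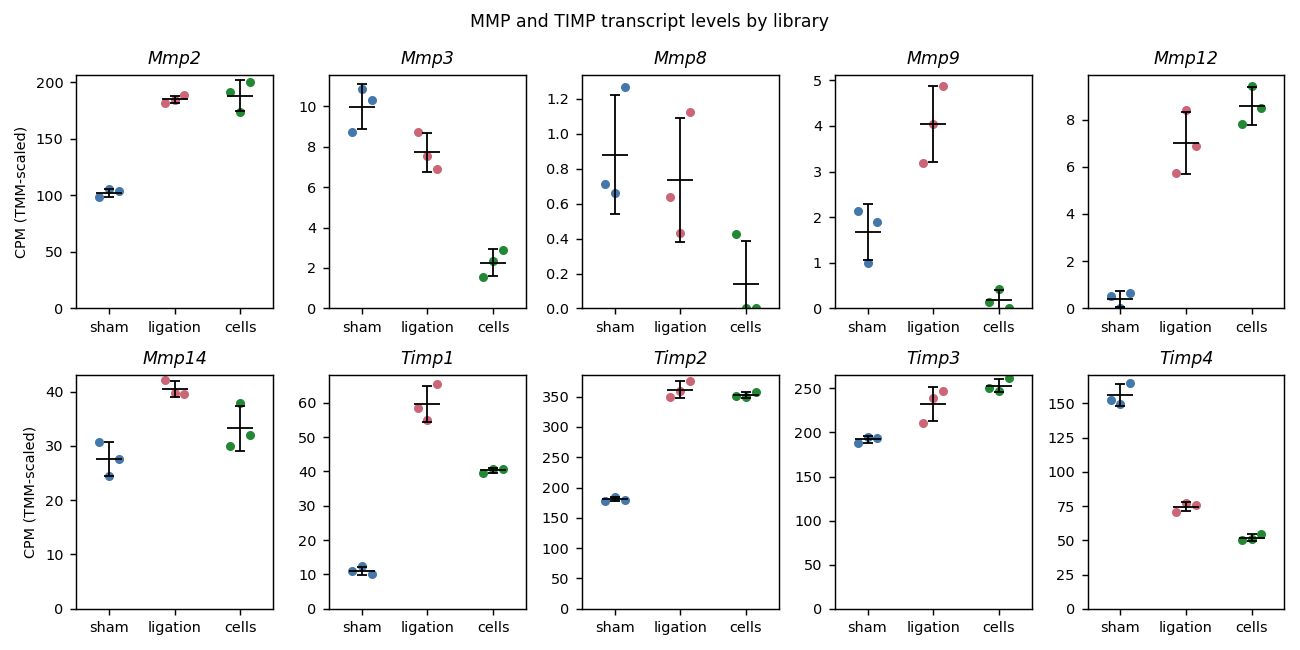
Each panel plots CPM for 1 gene in the 9 libraries, with points for libraries and bars for the group mean ± SD of 3 libraries. Timp1 goes from 11.1 CPM in sham to 59.6 after ligation and 40.3 with cells, Timp4 from 155.9 to 74.5 and 51.9, and Mmp12 stays at 8.58 with cells where Mmp9 is at 0.186.

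Among the gelatinases, Mmp2, an enzyme that cuts denatured collagen and basement membrane collagen, had the highest level per kb of exon among the 6 metalloproteinases in every group. The sham libraries had 98.6, 105.4 and 103.5 CPM, the ligation libraries 182.0, 184.2 and 188.5, and the cell libraries 191.5, 173.5 and 199.9. All 6 libraries from ligated hearts were above all sham libraries, and the ligation and cell libraries overlapped. Mmp2 rose after ligation by 0.85 on the log2 scale (SE 0.0608, adjusted p = 5.80e-10, edgeR quasi-likelihood test).

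Mmp9, the other gelatinase, which neutrophils and macrophages are known to carry, was scarce. Its counts were 12, 6 and 12 in sham, 15, 28 and 39 after ligation, and 1, 3 and 0 with cells. In CPM these were 2.14, 0.989 and 1.90, then 3.20, 4.05 and 4.87, then 0.142, 0.416 and 0. The ligation libraries were all above the sham libraries, and the cell libraries were below both groups. The rise after ligation was 1.29 on the log2 scale (95% interval 0.48 to 2.10, adjusted p = 0.0121 in the same edgeR test). That call was lost without sham library 2 (1.02, adjusted p = 0.0731) and without ligation library 3 (1.11, adjusted p = 0.0781).

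Mmp12, the elastase typical of macrophages, was near the detection limit in sham and present in every library from ligated hearts. The counts were 3, 0 and 4 in sham, 27, 58 and 55 after ligation, and 55, 68 and 59 with cells. No library from a ligated heart overlapped the sham libraries. The ligation libraries held 140 counts against 7 in sham, a ratio of 18.4 after scaling (95% counting interval 8.68 to 46.5), and the fitted rise was 4.12 on the log2 scale (SE 0.427, adjusted p = 1.38e-07, same edgeR test). Mmp12 shared 157 exon bases with Mmp1b on the other strand, and Mmp1b had 0 counts throughout.

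Mmp14, a membrane-anchored collagenase that activates the Mmp2 precursor together with Timp2, was at 30.8, 24.4 and 27.6 CPM in sham and at 42.2, 39.8 and 39.5 after ligation. The groups did not overlap, and the rise was 0.55 on the log2 scale (SE 0.105, adjusted p = 0.000264, same edgeR test). The stromelysin Mmp3, which cuts proteoglycans and activates other metalloproteinases, gave 8.72, 10.9 and 10.3 CPM in sham and 8.74, 7.52 and 6.87 after ligation. These ranges overlapped slightly, and the fitted difference of -0.39 did not pass (95% interval -0.82 to 0.04, adjusted p = 0.145, same edgeR test). Of the sequence of Mmp3, 14.6% of 31-base words also occur in other genes, chiefly Mmp10 and gene models beside it, so its counts are less certain than those of the others. Mmp10 had 0 counts. Mmp8, the neutrophil collagenase, had counts of 4, 4 and 8 in sham and 3, 3 and 9 after ligation, which overlap.

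Of the inhibitors, Timp1, a soluble inhibitor that is typically induced by injury, had the largest rise. It stood at 10.9, 12.4 and 10 CPM in sham and at 58.4, 55.0 and 65.4 after ligation, so that every ligation library was far above every sham library. The rise was 2.43 on the log2 scale, or 5.39-fold (SE 0.105, adjusted p = 2.32e-13, edgeR quasi-likelihood test).

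Timp2, an inhibitor that also forms the complex through which Mmp14 activates Mmp2, was at 177.1, 183.9 and 180.3 CPM in sham. It reached 348.8, 359.3 and 376.1 after ligation. The ranges stood apart, and the rise was 2.004-fold (1.003 on the log2 scale, SE 0.0480, adjusted p = 1.13e-12, same edgeR test). Timp3, which is bound to the matrix and also inhibits ADAM sheddases, moved least of the genes called. It had 188.1, 194.7 and 193.5 CPM in sham and 210.5, 239.5 and 247.5 after ligation, a rise of 0.28 on the log2 scale (SE 0.0582, adjusted p = 0.0007). Timp3 shares 1733 exon bases with Syn3 on the other strand, but Syn3 had between 2 and 8 counts in any library.

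Timp4, the TIMP known for its high level in normal heart, went the other way. Sham libraries had 152.7, 149.9 and 165.1 CPM and ligation libraries 70.7, 77.1 and 75.6. The groups were far apart, and Timp4 fell by 1.06 on the log2 scale, 2.09-fold lower (SE 0.0646, adjusted p = 4.75e-11, same edgeR test). Its exons overlap those of Syn2 on the other strand by 90 bases, and Syn2 had 17 to 44 counts per library.

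Marker genes of several cell types moved in the same comparison, and in bulk tissue fewer cells of a type and less RNA per cell cannot be told apart. Of 10 macrophage markers, 8 rose and 1 fell, and their summed level went from between 701.2 and 760.3 CPM to between 1238 and 1266. Of 10 fibroblast markers, 5 rose and 1 fell, with sums of 1689 to 1730 and 2200 to 2349 CPM (Dcn, 1 of them, is also in the list of matrix substrates). Of 10 cardiomyocyte markers, 1 rose and 8 fell, with sums of 66300 to 68560 and 50060 to 52880 CPM, and of 10 endothelial markers, 1 rose and 9 fell, with sums of 2451 to 2564 and 1687 to 1808. All 8 mesothelial and epicardial markers rose, from sums of 37.3 to 49.3 CPM to sums of 245.7 to 284.3. Of 7 smooth muscle and pericyte markers tested, 1 rose and 5 fell. Neutrophil markers were scarce: 4 of 10 were tested, 2 fell (S100a8 and S100a9), and the sums went from between 39.4 and 46.5 CPM to between 15.3 and 21.6, with Mpo and Elane at 0 in sham. The part of these cells in the changes of the metalloproteinases and TIMPs was not tested.

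**Figure D2:**
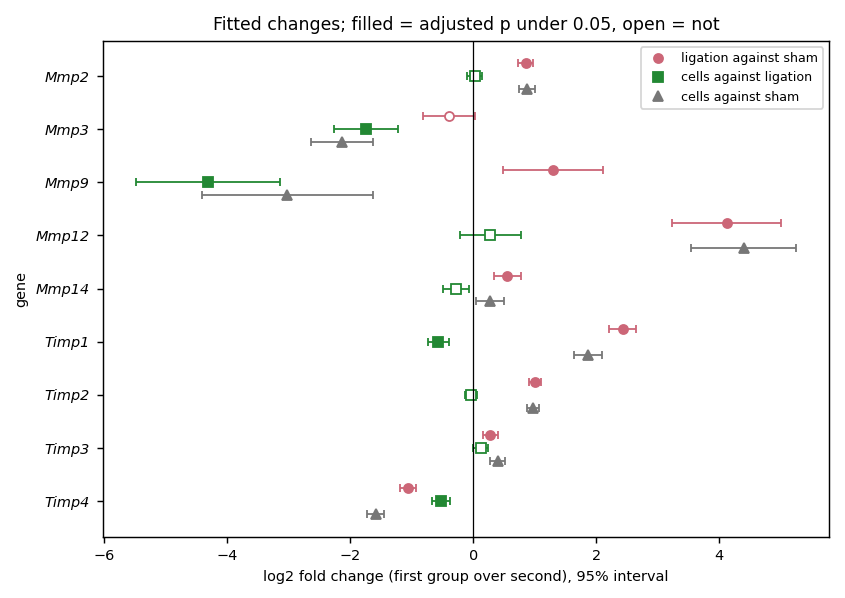
Fitted log2 fold changes with 95% intervals for the 9 genes tested, in 3 comparisons, with filled symbols where the adjusted p was under 0.05. In cells against ligation, Mmp9 (-4.32), Mmp3 (-1.74), Timp1 (-0.57) and Timp4 (-0.52) are filled, and all 4 lie to the left of 0.

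In the cell group, 4 of the 9 genes tested fell relative to ligation alone and none rose: Mmp3, Mmp9, Timp1 and Timp4 (same edgeR test). Mmp2, Mmp12, Mmp14, Timp2 and Timp3 did not pass. Across all genes 9.87% were called in this comparison, 4.19% higher and 5.69% lower. With library totals alone the called genes split into 436 higher and 927 lower, against 579 and 786. Library values did not overlap for 5 of the 9 genes tested, those 4 together with Mmp14, beside 27.2% of all genes tested. Those of Mmp8 did not overlap either, at 0.4255 CPM or less with cells and 0.4341 CPM or more after ligation. But cell library 1 and ligation libraries 1 and 2 each held 3 counts, so this gap came from the scaling alone. The ligation libraries serve in this comparison and in the previous one, so a chance deviation in them enters both with opposite sign.

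Mmp9 gave the largest difference. The ligation libraries held 82 counts and the cell libraries 4, a ratio of 22.2 after scaling (95% counting interval 8.34 to 83.3). The fitted log2 fold change was -4.32 (SE 0.562, adjusted p = 2.11e-05, same edgeR test), a value that depends on the small counts in the cell group: it ranged from -5.51 without cell library 2 to -3.79 without cell library 3. Against sham it was -3.02, and it ranged from -4.22, without cell library 2, to -2.495 when libraries were left out. With cells Mmp9 was also below sham, with 30 counts against 4 and a ratio of 8.84 (interval 3.12 to 34.5).

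Mmp3 stood at 1.56, 2.36 and 2.88 CPM in the cell libraries, below every ligation and every sham library. It was 3.34-fold lower than after ligation alone (log2 fold change -1.74, 95% interval -2.27 to -1.22, adjusted p = 7.02e-05). Against sham Mmp3 was lower by a log2 fold change of -2.13 (adjusted p = 5.43e-07, same edgeR test). Mmp8 had counts of 3, 0 and 0 with cells, against 15 counts in all ligation libraries, a ratio of 5.41 (95% counting interval 1.53 to 29.1). Without a filter on low counts its difference did not pass (-2.26, adjusted p = 0.182, same edgeR test).

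Mmp12 did not follow Mmp9 and Mmp3. Its cell libraries had 7.80, 9.43 and 8.50 CPM and its ligation libraries 5.75, 8.39 and 6.88, which overlap. The fitted difference was 0.28 on the log2 scale (95% interval -0.22 to 0.77, adjusted p = 0.551, same edgeR test), whose lower bound is -0.22. Mmp2 differed by 0.03 (interval -0.10 to 0.15, adjusted p = 0.846) and changed sign with library totals alone. Mmp14 had 29.9, 37.9 and 32.0 CPM with cells, all below the ligation libraries. Its difference of -0.28 did not pass (interval -0.49 to -0.07, adjusted p = 0.0863), but passed without cell library 2 (-0.38, adjusted p = 0.0239).

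Timp1 was at 39.6, 40.8 and 40.6 CPM with cells, below all ligation libraries and above all sham libraries. It fell by 0.57 on the log2 scale relative to ligation (SE 0.0843, adjusted p = 0.000102, same edgeR test). Timp4 was at 49.9, 51.2 and 54.7 CPM, below both other groups, and fell by a further 0.52 (SE 0.0689, adjusted p = 2.43e-05). So relative to ligation Timp1 was nearer to sham and Timp4 farther from it. Timp2 (351.5, 349.3 and 357.5 CPM) and Timp3 (250.5, 247.2 and 261.7 CPM) overlapped the ligation libraries. Their differences were -0.04 (interval -0.13 to 0.06, adjusted p = 0.710) and 0.12 (interval -0.00 to 0.24, adjusted p = 0.221).

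Marker genes of several cell types differed in this comparison too. All 10 macrophage markers fell in the cell group relative to ligation, with log2 fold changes between -1.69 and -0.98 (same edgeR test). Their summed level was 505.3 to 521.4 CPM against 1238 to 1266. Of the 4 neutrophil markers tested 3 fell, to sums of 5.91 to 6.80 CPM, with Elane and Ngp at 0 in the cell group. Fibroblast markers differed little, with 1 of 10 lower and sums of 2209 to 2264 CPM. Cardiomyocyte markers had 2 higher, 1 lower and 7 of 10 not past the test, with sums of 50390 to 51570 CPM against 50060 to 52880 after ligation. Of 8 mesothelial markers 3 fell and none rose. Of 10 endothelial markers 3 rose (Cldn5, Tek and Kdr, by 0.65, 0.24 and 0.24) and Vwf fell by 0.34, with sums of 1807 to 1847 CPM against 1687 to 1808. Of 7 smooth muscle and pericyte markers tested, 1 rose and 2 fell. Ighm, the 1 lymphocyte marker tested, fell by 1.49. These marker genes were chosen for naming after their values were seen. The part of these cells in the changes of Mmp3, Mmp9, Timp1 and Timp4 was not tested.

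**Figure D3:**
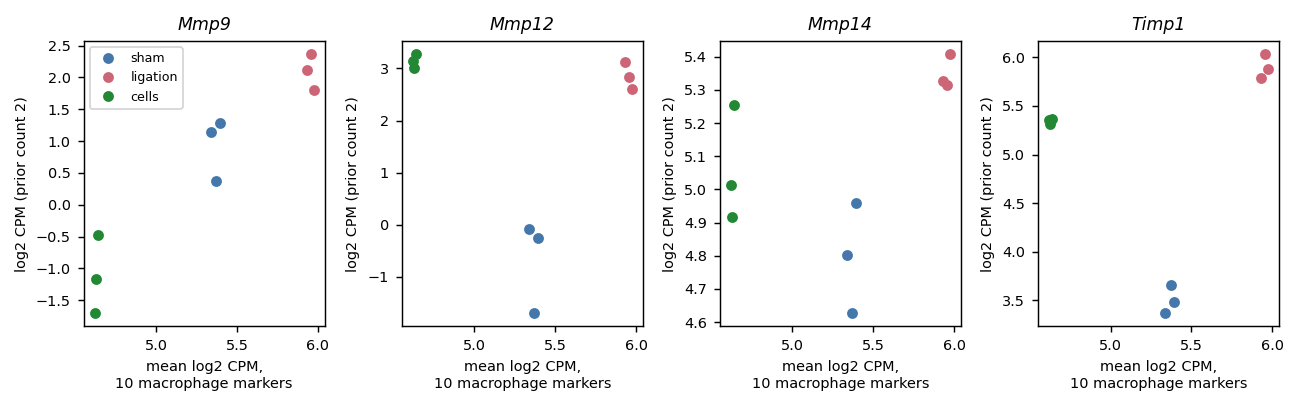
Each panel plots the log2 CPM of 1 gene against the mean log2 CPM of 10 macrophage markers, 1 point per library. Cell libraries lie between 4.62 and 4.64 on the marker axis and ligation libraries between 5.93 and 5.98, while the Mmp12 ranges of the 2 groups overlap, with 2 of the 3 ligation libraries below every cell library.

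Compared with sham, the cell group differed in all 9 genes tested, 6 higher and 3 lower, where 40.9% of all genes were called, 21.0% higher and 20.0% lower. Library values did not overlap for 8 of the 9 genes tested, beside 49.8% of all genes tested. Those of Mmp8 were also apart, but its nearest libraries held 3 counts (cell library 1) and 4 counts (sham library 2). With library totals alone 4612 genes were higher and 1698 lower, against 2899 and 2762, and the median of all genes moved to 0.15. Mmp12 had 182 counts against 7, a ratio of 22.1 (95% counting interval 10.5 to 55.7). Timp1 was higher by 1.86 (SE 0.108, adjusted p = 2.10e-11), Timp2 by 0.97, Mmp2 by 0.88 and Timp3 by 0.40 on the log2 scale. Timp4 was 3.001-fold lower (log2 fold change -1.59, SE 0.0663, adjusted p = 1.09e-13, same edgeR test). Mmp14 was the weakest call, 0.27 with overlapping libraries (adjusted p = 0.0451), and it was lost under most alternatives tried. DESeq2, for example, gave an adjusted p of 0.101 for it. Markers moved here too: 7 of 10 macrophage markers, 4 of 4 tested neutrophil markers, 8 of 10 cardiomyocyte markers, 8 of 10 endothelial markers and 5 of 7 tested smooth muscle and pericyte markers were lower, while 4 of 10 fibroblast markers and 8 of 8 mesothelial markers were higher. Of the cardiomyocyte markers 1 was higher. The part of these cells in the 9 differences was not tested.

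Levels can be set side by side between genes only per length, here CPM per kb of merged exons. The sum of the 4 TIMPs was above that of the 6 metalloproteinases in every library. The TIMP sum was 108.8 ± 1.93 CPM per kb in sham, 201.0 ± 10.8 after ligation and 175.9 ± 2.69 with cells, and the sum of the 6 metalloproteinases was 41.5 ± 1.08, 68.3 ± 0.711 and 64.0 ± 3.44 (SD, n = 3 each). Both sums were higher after ligation, and their ratio was 2.59 to 2.65 in sham, 2.85 to 3.09 after ligation and 2.65 to 2.88 with cells. The 17 other metalloproteinases are not in these sums: their summed level was 151.3 to 170.2 CPM in sham, 112.1 to 134.9 after ligation and 125.0 to 135.2 with cells, so the ratio holds only for the genes chosen. It did not overlap between sham and ligation, and it overlapped between ligation and cells. With exon lengths from the basic annotation the sham mean was 2.76, against 2.93 after ligation, and the sham and ligation ranges still did not overlap.

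The makeup of the TIMP sum differed more between the groups than the ratio did. Timp4 made up 24.3% of the TIMP sum in sham, 6.29% after ligation and 5.01% with cells. Timp1 went from 11.4% to 33.4% and 25.8%, and Timp2 was the largest component throughout, at 42.6%, 46.2% and 51.5%. Timp3 was at 21.7%, 14.2% and 17.7%. In order of level, sham ran Timp2, Timp4, Timp3 and Timp1, and both ligated groups ran Timp2, Timp1, Timp3 and Timp4. Ranges of the library levels did not overlap between neighbours in these orders, but the place of Timp3 depends on the exon lengths used. With lengths from the basic annotation Timp3 was at 40.7 ± 0.744 CPM per kb in sham, above Timp4 at 26.4 ± 1.37, and at 53.6 ± 1.61 with cells, above Timp1 at 45.4 ± 0.739 (SD, n = 3 each). The order after ligation was the same with both lengths. With basic lengths Timp4 made up 20.6%, 5.59% and 4.34% of the sum and Timp1 9.72%, 29.6% and 22.4%, so the direction of both was the same.

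Mmp2 dominated the protease sum, with 73.3% in sham, 80.3% after ligation and 87.2% with cells. Mmp3 went from 13.3% to 6.27% and 1.96%, and Mmp14 from 11.2% to 9.94% and 8.77%. Mmp3 and Mmp14 did not differ in level beyond their spread in sham, at 5.54 ± 0.620 and 4.63 ± 0.538 CPM per kb (n = 3 each). With basic lengths Mmp14 was the higher, at 6.60 ± 0.766 against 5.54 ± 0.620, with overlapping ranges, and made up 14.2%, 12.5% and 11.0% of the sum. Mmp9, Mmp12 and Mmp8 each made up a small share. Mmp12 went from 0.130% in sham to 1.42% and 1.86%, or from 0.211% to 2.27% and 2.97% with basic lengths, and Mmp9 from 1.15% to 1.67% and then 0.0856%.

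**Figure D4:**
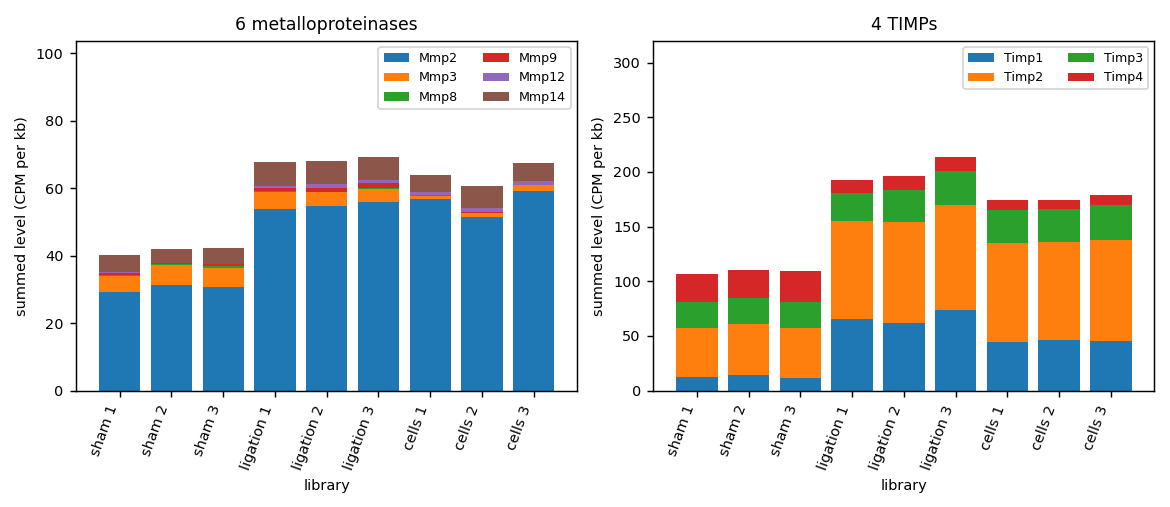
Stacked bars give the summed level in CPM per kb of merged exons in each of the 9 libraries, for the 6 metalloproteinases (left) and the 4 TIMPs (right). The Timp4 segment shrinks from 24.3% of the TIMP sum in sham to 6.29% after ligation while Timp1 grows from 11.4% to 33.4%.

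The genes around these families were taken from 6 lists by function. The counts called in each list stand beside shares over all genes of 38.2% after ligation (20.1% higher, 18.0% lower) and 9.87% with cells (4.19% higher, 5.69% lower). Of 17 other metalloproteinases 7 were tested, and after ligation Mmp19 (1.19) and Mmp23 (0.76) rose and Mmp15, a membrane-type enzyme, fell (-0.91, values on the log2 scale). With cells Mmp15 rose by 0.28 and Mmp11 fell by 0.63 (adjusted p = 0.0196, same edgeR test). The medians of the 7 were 0.29 and -0.08, beside 0.01 and 0.002 for all genes, and neither call with cells was steady: their count was 0 without ligation library 3 or cell library 3, and 1 without sham library 3, ligation library 1, cell library 1 or cell library 2.

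Of the plasminogen system, whose product plasmin activates metalloproteinase precursors, 6 of 9 genes were tested, 2 rose and 2 fell after ligation (median -0.28). Serpine2, a serpin that inhibits plasminogen activators, rose by 0.75, while the activator Plat fell by 0.51 and Plgrkt by 0.33 on the log2 scale. With cells, 1 rose and 2 fell (median -0.14): Plat rose by 0.48 and Serpine2 fell by 0.36. Plat and Serpine2 therefore lay nearer to sham with cells than after ligation alone.

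Of 9 tested binding partners and other inhibitors, 3 rose and 2 fell after ligation (median 0.18). Those that rose were Thbs1, a matricellular protein, at 1.28, Cd44, a docking receptor for Mmp9, at 0.97 and the clearance receptor Lrp1 at 0.70. Those that fell were Thbs2 at -0.35 and Bsg, an inducer of metalloproteinases in neighbouring cells, at -0.28. With cells 1 rose and 1 fell (median 0.08), Thbs1 by 0.63 and Cd44 at -0.38. The count of 2 was 1 without ligation library 3, cell library 1 or cell library 2. Of the 9 ADAM and ADAMTS proteases, which TIMPs also inhibit, 5 rose and 1 fell after ligation (median 0.32). Adam8 rose by 2.31, Adam12 by 1.40 and Adamts2 by 1.19, and Adam15 fell by 0.42. With cells only Adam8 of the 9 was called, at -1.31 (list median -0.12), which is about the share over all genes, 9.87%. Without ligation library 1, 2 of the 9 were called.

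Of 10 tested cytokines and AP-1 genes known to induce metalloproteinases, 5 rose and none fell after ligation (median 0.29). Spp1, a secreted cytokine-like matrix protein, rose by 3.60, Fos by 1.48 and Fosl2 by 0.89, and Il6 by 3.93 from a very low level (0.114 CPM in sham, 1.94 after ligation). With cells 5 rose and 2 fell (median 0.33). All 5 that rose were AP-1 genes: Fos by 1.51, Fosb by 1.35, Jun by 0.68, Junb by 0.52 and Fosl2 by 0.40, while Spp1 and Tgfb1 fell (-1.02 and -0.37).

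Of the 12 matrix substrates, 11 rose and none fell after ligation (median 0.95), with Tnc at 2.17, Fn1 at 1.64, Col3a1 at 1.38 and Col1a2 at 1.29. With cells none rose and 3 fell (median -0.09): Bgn (-0.27), Col4a2 (-0.26) and Col3a1 (-0.23). Without ligation library 1, 6 were called. The fibrillar collagen genes Col1a1 and Col1a2 did not pass, at -0.12 and -0.06. The elastin gene Eln, whose protein Mmp12 cuts, passed in neither comparison, at 0.10 and -0.01.

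The 3 genes whose log2 CPM was most like that of Mmp9 over the 9 libraries, among 13794 genes compared, were Clec5a (Pearson r = 0.982), Ccr1 (0.978) and Nckap1l (0.973). For Mmp12 they were Usp8 (0.991), Cidec (0.990) and Trp53inp2 (0.989). The genes most like Timp1 were C7 (0.999), Bgn and Des (0.997 each). For Timp4 they were Irgm1 (0.995), H19 and Gm12185 (0.992 each). The libraries fall into 3 groups, so these coefficients mainly describe a shared order of group levels and carry no test. Ccr1 shared the group order of Mmp9, at 3.77, 7.82 and 1.08 CPM in sham, ligation and cells, and Irgm1 shared that of Timp4, at 123.9, 60.0 and 37.4 CPM.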

How the data were processed

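RNA of 9 mouse heart libraries was measured as whole-number read counts per gene, 1 deposited count file per library, which the authors made by assigning reads to Ensembl gene IDs. The build was mm10, per the submitters' processing notes. The aligner, the counter, its strand setting and the annotation are not given in the sources used here. The 5 closing lines of each file that name no gene were left out of library sizes. Counts were analysed in R 4.3.3 with edgeR 4.0.16: filterByExpr, TMM factors, 1 mean per group over all 9 libraries (6 residual degrees of freedom), glmQLFTest and Benjamini-Hochberg adjustment, with a threshold of 0.05. Without a stated strand setting, antisense overlaps cannot be separated. Symbols were found for 53274 of the 53465 IDs and for all 154 genes of the lists. Positions, exon lengths and shared words of 31 bases came from GENCODE M21, and promoters from a RefSeq table (GRCm38.p6), both of the same build as mm10. The counting intervals of ratios are exact and cover counting error only. The pipeline was tested on simulated data.

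The genes and lists were chosen with earlier results of these data known. All 10 genes are named. From each list, up to 4 genes with the largest absolute change past the threshold are named in either of the first 2 comparisons. Some genes counted in the lists are not reported by name here. Mmp1a, Mmp1b, Mmp7, Mmp10, Mmp13, Mmp20, Mmp27, Bsg, Col1a1, Eln, Junb and Tgfb1 lie outside that rule and were named after their values were seen. The alternatives were 3 other scalings, 2 other filters, DESeq2 1.42.0, limma-voom (limma 3.58.1), only the groups compared, removal of mitochondrially encoded genes, a replicate block, other exon lengths and leaving out each library.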

Additional observations from a re-analysis of the deposited data

How the results depend on the processing

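Over the alternatives, the counts of metalloproteinase and TIMP genes called stayed at 7 to 8 of 9 for ligation against sham, 4 to 5 for cells against ligation and 8 to 9 for cells against sham when libraries were left out. Counts over all genes ranged from 4482 to 5459, 951 to 1398 and 5055 to 5746 in these refits. DESeq2 called 4488, 1058 and 4786 genes. For Mmp2, cells against ligation changed sign with library totals alone (-0.003614, adjusted p = 0.981) and without cell library 3 (-0.02106, adjusted p = 0.900), both in edgeR, and ranged from -0.02106 to 0.08083 when libraries were left out. Mmp14 in cells against sham lost its call in 7 of the other settings and in 7 of 9 refits without a library (0.17 to 0.35). The ratio of TIMP to metalloproteinase levels in sham was 2.763 with basic exon lengths. Mmp8 was tested only without a filter: -0.22, -2.26 and -2.48, with edgeR adjusted p = 0.906, 0.182 and 0.0399 in the 3 comparisons. The cause of these differences was not tested.

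Replicate numbers do not pair the libraries: same-numbered deviations correlated between -0.0537 and 0.0586. With the replicate number as a block, 5134, 1230 and 5511 genes were called, and of the 9 genes Mmp14 in cells against sham lost its call (0.27, adjusted p = 0.0615). Summing libraries whose headers share a name stem, chosen after seeing the data, called 8, 4 and 8 of the 9 genes. Of all 14054 genes tested in that setting, 4571, 1101 and 5409 were called.

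Depth limits Mmp8, Mmp9 and Mmp12, whose counts reached 0 in at least 1 library.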
